A study of Homo sapiens with 24 samples.

Results

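The oxygen-sensing enzymes of the hypoxia-inducible factor (HIF) pathway and the VHL ubiquitin ligase subunit were followed across 4 cancer cell lines. The members were taken by gene symbol, and are 5 of the 23106 gene symbols counted: the prolyl hydroxylase genes *EGLN1*, *EGLN2* and *EGLN3*, the asparaginyl hydroxylase gene *HIF1AN* and *VHL*. Polyadenylated RNA was sequenced from the lung line A549, the colorectal line HCT116, the prostate line PC3 and the breast line T47D. Each line gave 3 libraries from cells in normoxia (21% oxygen) and 3 libraries from cells in hypoxia (0.5% oxygen for 16 h, in a hypoxia workstation), that is 24 libraries in 8 groups. A549 and PC3 cells grew in F12K medium, HCT116 cells in McCoy's 5a medium and T47D cells in DMEM, all with 10% fetal bovine serum. No genetic change or drug is named in the labels of any group, and within a line oxygen is the only difference named between the groups. The methods of the study list alternative RNA kits, library kits and sequencers without saying which libraries each served. Other differences between the groups were not tested. Medium and cell line cannot be told apart when HCT116 or T47D cells are compared with the other lines.

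In oxygenated cells, the EGLN enzymes (also called PHD enzymes) use molecular oxygen, iron and 2-oxoglutarate to hydroxylate prolines of the HIF-α subunits. VHL, the substrate-binding subunit of a ubiquitin ligase, captures the hydroxylated subunits and marks them for destruction by the proteasome. The product of *HIF1AN*, known as FIH (factor inhibiting HIF), hydroxylates an asparagine of HIF-α, which blocks its contact with the coactivators p300 and CBP. When oxygen is short, HIF-α accumulates, pairs with ARNT and binds DNA at hypoxia response elements, and *EGLN1* and *EGLN3* are textbook HIF target genes. These counts measure transcripts, not enzyme activity or protein.

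*EGLN1* lies on the minus strand at chr1:231499502-231558033 (5 exons) and *EGLN3* on the minus strand at chr14:34393433-34420280 (5 exons). *EGLN2* is on the plus strand at chr19:41305096-41314339 (6 exons), *HIF1AN* on the plus strand at chr10:102295700-102319755 (8 exons) and *VHL* on the plus strand at chr3:10183462-10195351 (3 exons). Coordinates are those of the MANE Select transcript (the agreed reference transcript of a gene) in GRCh37, with GENCODE 44 gene models. The stretch of 250 bases before the start site was taken from RefSeq (GRCh38.p14) for 4 of the 5 genes. Each stretch occurred once near its gene in GRCh37, directly before the first base of the MANE Select transcript. The windows of the 3 EGLN genes are printed here, 5′ to 3′ on the strand of the gene, since these paralogs differed most in their response. Capitals mark the core letters of the hypoxia response element, ACGTG, read on either strand. GCGTG was searched in the same way and was found in none of the 3 windows.
EGLN1, chr1:231422288-231422537, minus strand: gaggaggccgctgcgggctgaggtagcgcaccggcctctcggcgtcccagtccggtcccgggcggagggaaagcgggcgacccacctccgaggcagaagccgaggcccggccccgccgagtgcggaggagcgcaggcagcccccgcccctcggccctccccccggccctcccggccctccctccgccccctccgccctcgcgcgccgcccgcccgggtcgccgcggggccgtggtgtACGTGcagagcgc
EGLN2, chr19:40798941-40799190, plus strand: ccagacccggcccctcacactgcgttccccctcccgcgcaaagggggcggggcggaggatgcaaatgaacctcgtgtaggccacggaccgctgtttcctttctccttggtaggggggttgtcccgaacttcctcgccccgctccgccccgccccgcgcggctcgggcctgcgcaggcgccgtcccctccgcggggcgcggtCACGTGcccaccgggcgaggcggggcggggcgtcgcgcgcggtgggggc
EGLN3, chr14:33951075-33951324, minus strand: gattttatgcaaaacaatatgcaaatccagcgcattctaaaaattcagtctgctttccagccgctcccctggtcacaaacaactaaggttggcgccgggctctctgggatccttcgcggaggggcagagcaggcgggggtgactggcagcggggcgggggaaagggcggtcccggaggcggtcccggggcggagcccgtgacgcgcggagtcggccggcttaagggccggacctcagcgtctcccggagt
The *EGLN1* window held 1 ACGTG, on the strand of the gene, 9 to 13 bases before the start site. In the *EGLN2* window the capitals are the palindrome CACGTG, which holds ACGTG on both strands, 44 to 49 bases before the start site. A second *EGLN2* entry of RefSeq, 331 bases downstream, held neither ACGTG nor GCGTG, and the same was true of *EGLN3* and *HIF1AN*. Of the 35116 promoter windows of this length in the table, 18.5% held ACGTG, 32.2% held GCGTG and 6.34% held CACGTG. A match is a description of the letters and not a binding site, and sites outside these windows were not searched.

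Library totals ranged from 22698584 to 62850747 gene counts, so that 3 counts, taken as the floor, correspond to 0.0477 to 0.132 CPM (counts-per-million, that is relative to the TMM-scaled library size). This floor covers counting error only. Log2 CPM values of replicates correlated with r from 0.976 to 0.997 across genes, which are not independent replicates, and no pair of libraries held identical counts. The labels do not say whether replicates came from separate cultures, so p values measure the spread between these libraries, which may be technical. Of 6 breast markers, 5 reached a mean of 1 CPM in T47D cells, but 4 did so in PC3 cells too, with a summed level of 1869 to 3290 CPM in T47D and 73.5 to 127 CPM in PC3 libraries. Of 5 lung markers, 0 reached 1 CPM in A549 cells and 1 did in HCT116 cells. Of 6 colon markers, 1 reached it in HCT116 cells (*CDX2*) and 1 in A549 cells (*CDH17*). Of 3 markers of blood, endothelium and fibroblasts, *PTPRC* stayed under 1 CPM in each line, *PECAM1* reached it in PC3 cells and *COL1A1* in all 4 lines, with a sum of 9.99 to 54.9 CPM.

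The response to hypoxia was fitted line by line with the quasi-likelihood test of edgeR, with Benjamini-Hochberg adjustment over all genes tested in that line, and a gene was called when the adjusted p was below 0.05 and the fold exceeded 1.2 in either direction. All 5 genes passed the filter on low counts in every line. *EGLN1* and *EGLN3* were upregulated in all 4 lines. *HIF1AN* passed the test in A549 cells and *EGLN2* in PC3 cells, neither in a second line, and *VHL* was called in no line. In A549 cells 3 of the 5 genes were called, where 35.5% of the 13897 genes tested were called in either direction and 17.6% were upregulated. The numbers were 2 of 5 in HCT116 cells (50.3% of 13614 genes called, 23.3% upregulated), 3 of 5 in PC3 cells (32.3% of 13466, 16.6% upregulated) and 2 of 5 in T47D cells (13.2% of 14085, 6.55% upregulated). Of the 11734 genes tested in every line, 2.58% were upregulated in all 4 lines, as *EGLN1* and *EGLN3* were, and 29.5% were called in no line, as *VHL* was.

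**Figure D1:**
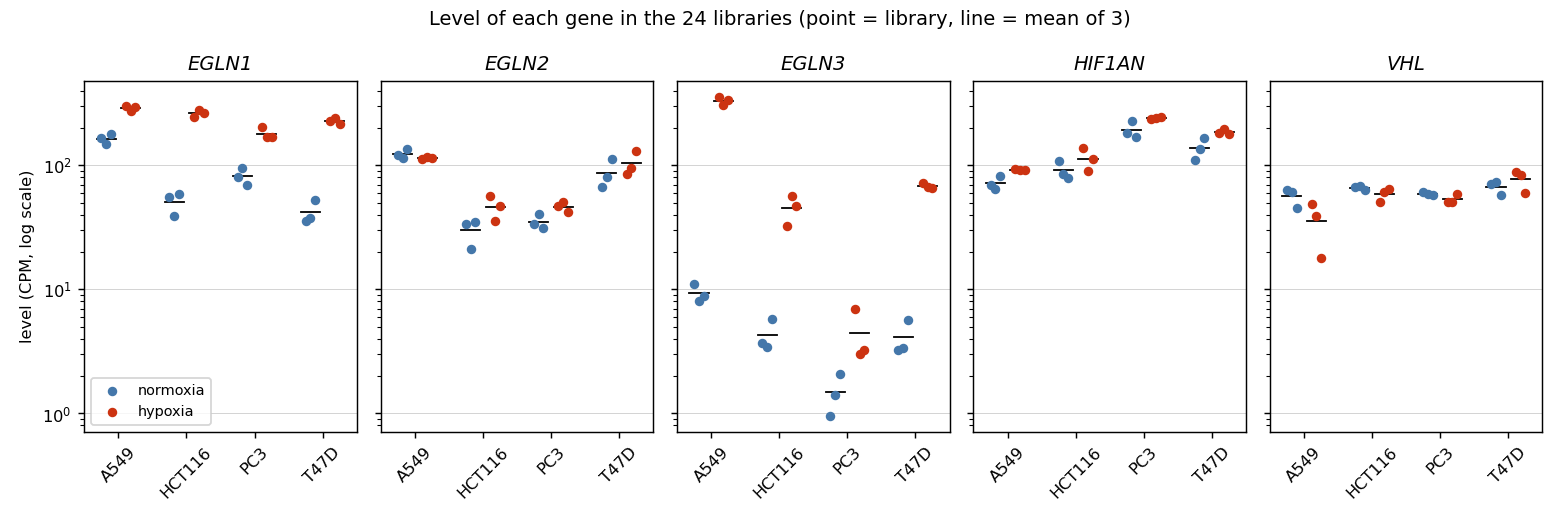
Level of the 5 genes in each library, in CPM on a log axis, with 1 panel per gene; points are libraries (blue, normoxia; red, hypoxia) and black lines are means of 3. *EGLN3* spans from 0.953 CPM in a normoxic PC3 library to 356 CPM in a hypoxic A549 library, and the *EGLN1* and *EGLN3* points of the oxygen states do not overlap in any line.

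*EGLN1* encodes PHD2, the main HIF prolyl hydroxylase of most normoxic cells. In A549 cells its level was 166, 148 and 179.7 CPM in the normoxic libraries and 300.5, 273 and 295 CPM in the hypoxic ones. In HCT116 cells the normoxic levels were 55.1, 38.9 and 58.4 CPM and the hypoxic levels were 245, 279 and 262 CPM. Every hypoxic library lay above every normoxic library in both lines. In PC3 cells the level was 80.5, 95.3 and 69.6 CPM in normoxia and 202, 169.6 and 169 CPM in hypoxia. In T47D cells it was 35.6, 37.8 and 52.7 CPM in normoxia and 229, 241 and 216 CPM in hypoxia. The groups of these 2 lines did not overlap either, and hypoxic libraries lay above all normoxic libraries for 23.6% of genes tested in A549, 32.8% in HCT116, 28.4% in PC3 and 19% in T47D cells.

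The log2 fold change of *EGLN1* was 0.81 ± 0.11 (SE, n = 3 per group) in A549 cells and 1.09 ± 0.12 in PC3 cells, and it was 2.25 ± 0.21 in HCT116 and 2.37 ± 0.21 in T47D cells. The adjusted p values of edgeR were 3.24e-04, 8.05e-04, 2.42e-05 and 2.61e-05, in the same order. In these bulk libraries, more RNA per cell and more cells that carry the RNA cannot be told apart. In a ranking of all genes tested by log2 fold change, *EGLN1* stood at place 110 in HCT116 cells, 139 in T47D cells, 362 in PC3 cells and 1024 in A549 cells. *EGLN1* shares 3004 exon bases with a longer gene model on the same strand (ENSG00000287856) that has no row in the counts.

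*EGLN3* encodes PHD3, the family member with the lowest normoxic count here. In A549 cells its level was 11.1, 8.11 and 8.83 CPM in normoxia and 356, 305 and 338 CPM in hypoxia. T47D cells had 3.27, 3.35 and 5.72 CPM in normoxia and 72.3, 66.6 and 65.8 CPM in hypoxia. HCT116 cells had 3.69, 3.46 and 5.74 CPM in normoxia and 32.7, 56.2 and 47.2 CPM in hypoxia. The lowest hypoxic library thus stood several-fold above the highest normoxic library in each of these 3 lines. In PC3 cells the level was 0.953, 1.40 and 2.09 CPM in normoxia and 6.98, 3.03 and 3.26 CPM in hypoxia, which rest on 23, 76 and 70 counts and on 298, 149 and 184 counts. The PC3 groups did not overlap, but hypoxic replicate 1 stood apart from the others.

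The log2 fold change of *EGLN3* was 5.15 ± 0.15 in A549 cells (35.5-fold; adjusted p = 2.92e-09 by edgeR), 3.98 ± 0.25 in T47D cells (15.7-fold; 1.69e-06) and 3.28 ± 0.26 in HCT116 cells (9.74-fold; 1.03e-05). In PC3 cells it was 1.503 ± 0.38 (2.83-fold; adjusted p = 0.0158 by edgeR). *EGLN3* ranked 6 among the 13897 genes of A549 cells by log2 fold change, 25 in HCT116 cells, 32 in T47D cells and 155 in PC3 cells. The PC3 call rested on single libraries: without hypoxic replicate 1 the log2 fold change was 1.01 (adjusted p = 0.0577 by edgeR), and without normoxic replicate 1 it was 1.299 (0.0513).

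*EGLN2* encodes PHD1, a largely nuclear prolyl hydroxylase. In PC3 cells its level was 33.4, 40.8 and 31.5 CPM in normoxia and 46.7, 50.7 and 42.1 CPM in hypoxia, without overlap, and the gene was upregulated (log2 fold change 0.35 ± 0.11, adjusted p = 0.0380 by edgeR). The call was lost without hypoxic replicate 1 (0.34, adjusted p = 0.0979 by edgeR), without hypoxic replicate 2 (0.29, 0.153) and without normoxic replicates 1 (0.31, 0.127) or 3 (0.29, 0.0663). Correcting for GC content and length of the transcript also ended it (0.21, adjusted p = 0.128 by edgeR). Such a correction also takes out any real response that follows GC content or length, so a call lost with it is not shown to be false. In HCT116 cells the level was 33.9, 21.1 and 35.1 CPM in normoxia and 56.3, 35.3 and 46.8 CPM in hypoxia. These groups touched without overlapping, and the change was not called (0.51 ± 0.23, adjusted p = 0.0875 by edgeR), although it passed without hypoxic replicate 2 (0.68, adjusted p = 0.0268). The correction lowered this value to 0.14 (adjusted p = 0.624 by edgeR). The groups overlapped in A549 cells, where the level was 114 to 136 CPM in normoxia and 112 to 116 CPM in hypoxia (log2 fold change -0.11 ± 0.11, adjusted p = 0.424 by edgeR). In T47D cells it was 67.0 to 112 CPM and 84.5 to 130.1 CPM, with overlap (0.19 ± 0.24, adjusted p = 0.628 by edgeR), and without hypoxic replicate 3 the sign turned (-0.02). *EGLN2* shares 2012 exon bases with the read-through gene *RAB4B-EGLN2*, which has no row of its own in the counts, so fragments of the read-through transcript may be in its count or lost from it.

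*HIF1AN* encodes FIH. In A549 cells its level was 69.1, 64.3 and 81.6 CPM in normoxia and 92.6, 92.4 and 91.8 CPM in hypoxia, so that the hypoxic libraries were closely grouped above all normoxic ones. The log2 fold change was 0.36 ± 0.11 (adjusted p = 0.0269 by edgeR). The call did not hold without hypoxic replicate 2 (0.37, adjusted p = 0.0817 by edgeR), without normoxic replicates 1 (0.33, 0.103) or 2 (0.29, 0.132), or with the correction for GC content and length (0.06, 0.687). In PC3 cells the level was 184, 229 and 168 CPM in normoxia and 235, 241 and 244 CPM in hypoxia, again without overlap. The change there was not called (0.26 ± 0.11, adjusted p = 0.0825 by edgeR) unless normoxic replicate 2 was left out (0.38, adjusted p = 0.0104). T47D cells ranged from 111 to 165 CPM in normoxia and from 178 to 196 CPM in hypoxia, also without overlap (0.36 ± 0.20, adjusted p = 0.251 by edgeR), and HCT116 cells from 79.0 to 108 CPM and from 90.0 to 138 CPM, with overlap (0.19 ± 0.22, 0.486). The hypoxic libraries therefore lay above the normoxic ones in 3 of 4 lines with log2 fold changes of 0.26 to 0.36. Such a separation was common, as it held for 23.6% (A549), 28.4% (PC3) and 19% (T47D) of all genes tested. With the correction the log2 fold change was -0.40 in HCT116 cells and -0.05 in PC3 cells, both uncalled, so no direction is given for *HIF1AN*. The *HIF1AN* gene model overlaps *NDUFB8* on the opposite strand (325 shared exon bases), upstream of the MANE Select transcript, and the strand setting of the counting is not given in the sources used here.

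*VHL* encodes the substrate-binding subunit of the ubiquitin ligase. Its mean was lower in hypoxia in 3 of 4 lines, without a call in any. In A549 cells its level was 63.5, 61.0 and 45.5 CPM in normoxia and 49.0, 39.2 and 18.1 CPM in hypoxia, with overlap and with hypoxic replicate 3 far below the others. The log2 fold change was -0.68 ± 0.27 (adjusted p = 0.0707 by edgeR). It was called downregulated without hypoxic replicate 1 (-0.98, adjusted p = 0.0160 by edgeR), the hypoxic library with the highest level. In HCT116 cells the level was 63.5 to 67.7 CPM in normoxia and 51.0 to 63.9 CPM in hypoxia (-0.29 ± 0.18, adjusted p = 0.198 by edgeR), and in PC3 cells 57.3 to 60.6 CPM and 50.4 to 59.1 CPM (-0.19 ± 0.09, 0.154), with overlap in both lines. T47D cells had 57.7 to 73.6 CPM and 59.6 to 87.7 CPM (0.11 ± 0.21, adjusted p = 0.753 by edgeR), and without normoxic replicate 3 the value was -0.01. The approximate 95% interval of the log2 fold change was -1.21 to -0.15 (A549), -0.65 to 0.067 (HCT116), -0.37 to 0.00062 (PC3) and -0.30 to 0.53 (T47D). It was set from the SE with a normal multiplier, which makes it too narrow with so few libraries. An antisense lncRNA without a row in the counts shares 1173 exon bases with *VHL*. The related gene *VHLL* had at most 7 counts in a library.

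**Figure D2:**
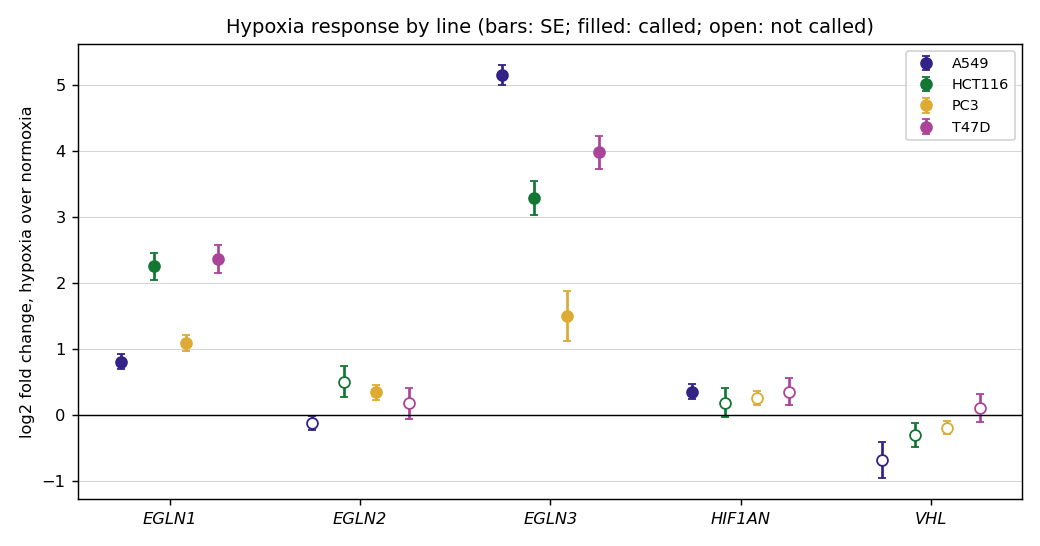
Log2 fold change of each gene in hypoxia over normoxia, with 1 point per cell line, bars for the SE and filled points for called changes. *EGLN3* reached 5.15 in A549 cells, *EGLN1* lay between 0.81 and 2.37, and the other 3 genes lay between -0.68 and 0.51.

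A single edgeR fit of the 24 libraries tested whether the response differed between lines (line by oxygen interaction). It differed for 2 of the 5 genes, *EGLN1* (adjusted p = 3.38e-05 by edgeR) and *EGLN3* (3.96e-05), where 18.3% of the 16089 genes tested passed. It was not called for *EGLN2* (adjusted p = 0.242), *VHL* (0.189) or *HIF1AN* (0.981). With the replicate number as a block, *EGLN2* (adjusted p = 0.0290 by edgeR) and *VHL* (0.0317) were called as well. The lines were then compared in pairs, with 6 pairs for each gene and 30 tests over the 5 genes, each adjusted over all genes. All 8 calls were for *EGLN1* and *EGLN3*. The replicate block added *EGLN2* in A549 minus HCT116 (-0.735, adjusted p = 0.0111 by edgeR) and *VHL* in A549 minus T47D (-0.96, 0.0287).

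The *EGLN1* response was larger in HCT116 and T47D cells than in A549 and PC3 cells. The difference of log2 fold changes was -1.55 ± 0.23 for A549 minus HCT116 (adjusted p = 2.81e-04 by edgeR, 16.7% of genes called) and -1.63 ± 0.23 for A549 minus T47D (2.40e-04, 2.11%). It was 1.23 ± 0.23 for HCT116 minus PC3 (adjusted p = 0.00188 by edgeR, 14.9% of genes called) and -1.303 ± 0.23 for PC3 minus T47D (0.00214, 2.25%). The pairs within each set were not called. Their approximate 95% intervals, set with the same normal multiplier, were -0.78 to 0.13 for A549 minus PC3 and -0.53 to 0.38 for HCT116 minus T47D.

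The *EGLN3* response followed another order. The difference of log2 fold changes was 3.604 ± 0.43 for A549 minus PC3 (adjusted p = 2.69e-05 by edgeR, 0.758% of genes called), -2.50 ± 0.43 for PC3 minus T47D (0.00127), 1.84 ± 0.43 for HCT116 minus PC3 (0.00738) and 1.76 ± 0.39 for A549 minus HCT116 (0.00581). PC3 cells thus had a smaller response than each other line. A549 minus T47D (approximate 95% interval 0.35 to 1.87, adjusted p = 0.162 by edgeR) and HCT116 minus T47D (-1.42 to 0.11, 0.291; 9.07% of genes called) were not called. With 2 libraries per group some of these calls were lost. Without replicate 2 of each group, adjusted p values by edgeR were 0.280 and 0.160 for *EGLN1* in HCT116 minus PC3 and PC3 minus T47D, and 0.0552, 0.364 and 0.0987 for *EGLN3* in A549 minus HCT116, HCT116 minus PC3 and PC3 minus T47D. Without replicate 1, they were 0.0618 and 0.149 for *EGLN1* in A549 minus T47D and PC3 minus T47D.

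**Figure D3:**
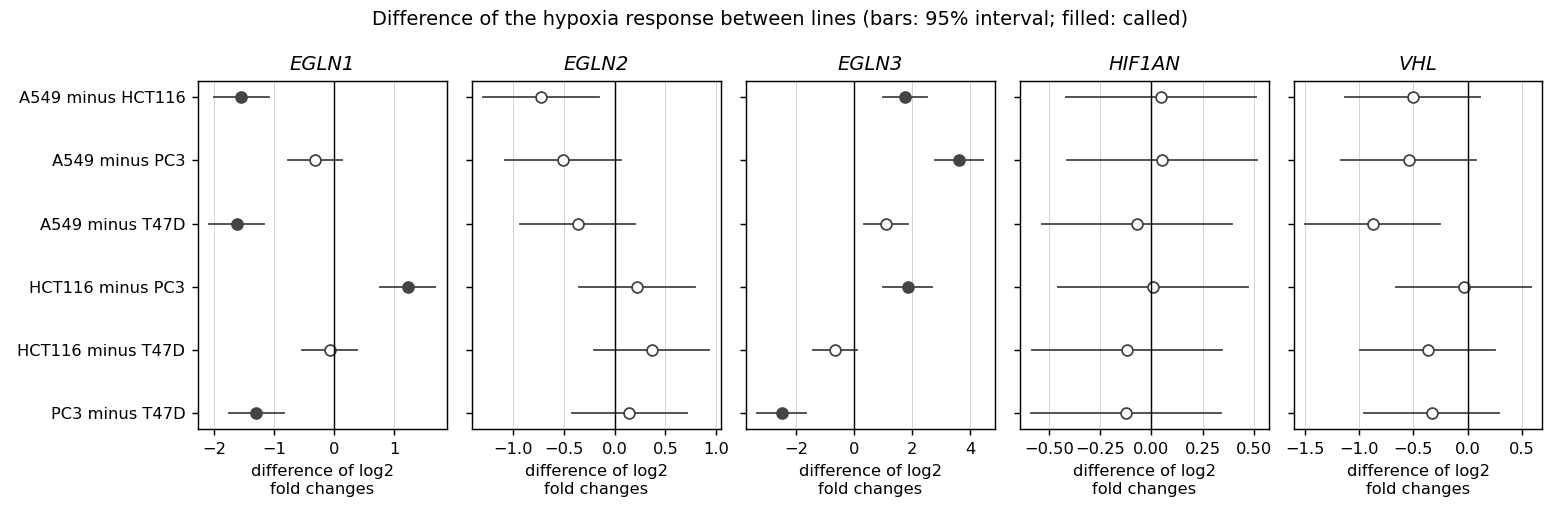
Difference of the log2 fold changes between 2 lines, for each of the 6 pairs (rows) and each gene (panels, each with its own horizontal scale). Bars give the approximate 95% interval (normal multiplier of the SE) and filled points are called differences. Filled points appear for *EGLN1* and *EGLN3* only, from -2.50 to 3.604.

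The level of the genes was next compared between neighbouring lines in the order of means, within each oxygen state, in the same fit. A called difference between lines was common among the 16089 genes. In normoxia the share called was 65% for A549 and HCT116, 60.5% for A549 and PC3, 67.7% for A549 and T47D, 66% for HCT116 and PC3, 69% for HCT116 and T47D and 68.1% for PC3 and T47D. In hypoxia, in the same order, it was 60.1%, 62.7%, 67.5%, 60.6%, 68% and 68.8%. In normoxia *EGLN1* was highest in A549 cells (165 ± 16.1 CPM, SD, n = 3), followed by PC3 (81.8 ± 12.9), HCT116 (50.8 ± 10.4) and T47D cells (42.1 ± 9.31). The steps from A549 to PC3 (adjusted p = 1.07e-05 by edgeR) and from PC3 to HCT116 (8.00e-04) were called, the second not without replicate 2 (0.101), and HCT116 and T47D cells did not differ beyond their spread (0.147). In hypoxia the order was A549 (289.7 ± 14.4 CPM), HCT116 (262 ± 17.0), T47D (229 ± 12.6) and PC3 (180.2 ± 19.2), and no neighbouring pair was called (adjusted p = 0.470, 0.292 and 0.0670 by edgeR), although 5 other settings called T47D above PC3 cells (0.0204 to 0.0495). The ratio of the highest to the lowest mean of *EGLN1* was 3.91 in normoxia and 1.61 in hypoxia.

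For *EGLN3* the same ratio was 6.31 in normoxia and 75.2 in hypoxia. Normoxic A549 cells (9.34 ± 1.56 CPM) stood above HCT116 (4.30 ± 1.26) and T47D cells (4.12 ± 1.39), which did not differ beyond their spread (adjusted p = 0.864 by edgeR), and PC3 cells (1.48 ± 0.57) stood below them (2.60e-04). In hypoxia A549 cells (333 ± 25.7 CPM) were called above T47D cells (68.2 ± 3.51; adjusted p = 8.02e-08 by edgeR), and HCT116 cells (45.4 ± 11.8) above PC3 cells (4.43 ± 2.22; 4.56e-10). T47D and HCT116 cells were not called apart (adjusted p = 0.0546 by edgeR), although 5 other settings and the fit without replicate 2 (0.0287) did call them.

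*EGLN2* was highest in A549 cells (123 ± 11.1 CPM in normoxia) and T47D cells (86.7 ± 23.2) and lower in PC3 (35.2 ± 4.89) and HCT116 cells (30.0 ± 7.76). The step from T47D to PC3 was called in normoxia (adjusted p = 6.16e-06 by edgeR) and in hypoxia (2.67e-05), and PC3 and HCT116 cells did not differ beyond their spread in either state. A549 and T47D cells differed in normoxia (adjusted p = 0.0315 by edgeR) but not without replicate 1 (0.215) or 2 (0.0884). *HIF1AN* was highest in PC3 cells (194 ± 31.2 CPM in normoxia and 240.2 ± 4.43 in hypoxia) and lowest in A549 cells (71.7 ± 8.92 and 92.3 ± 0.422). PC3 and T47D cells differed in normoxia (adjusted p = 0.0109 by edgeR), but not without replicate 1 (0.106) or 2 (0.271), and were not called apart in hypoxia (0.0502). HCT116 and A549 cells were called apart in neither state (adjusted p = 0.0751 and 0.130 by edgeR). The step from T47D to HCT116 cells was called in normoxia (adjusted p = 0.00320 by edgeR; 0.142 without replicate 3) and in hypoxia (6.50e-04). *VHL* ranged from 56.7 ± 9.73 CPM (A549) to 67.2 ± 8.37 CPM (T47D) in normoxia, and no neighbours differed. In hypoxia the A549 mean (35.4 ± 15.8 CPM) was called below that of PC3 cells (53.5 ± 4.86; adjusted p = 0.0247 by edgeR), but not without replicate 2 (0.105) or replicate 3 (0.265), the latter being the number of the low A549 library.

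Levels of different genes were set side by side per kilobase of exon, since a longer transcript collects more fragments. The union of all annotated exons, 5381 bases for *EGLN1*, 6574 for *EGLN2* and 7363 for *EGLN3*, was the main length. The MANE Select transcripts are shorter (4335, 2100 and 2706 bases). Summed over the 3 EGLN genes, the level rose from 50.6 ± 4.67 to 116 ± 5.86 CPM per kilobase in A549 cells (SD, n = 3) and from 14.6 ± 3.23 to 61.9 ± 3.16 in HCT116 cells. PC3 cells went from 20.8 ± 3.09 to 41.2 ± 3.97 and T47D cells from 21.6 ± 5.43 to 67.5 ± 1.93. The groups did not overlap in any line, and the mean over the lines was a 2.82-fold increase (exact two-sided permutation test of the oxygen labels within lines, 160000 arrangements, p = 1.25e-05, the smallest it can give). With the MANE Select length the mean increase was 2.52-fold (p = 1.25e-05 by the same permutation test). Within 1 line, the exact permutation test of 3 against 3 libraries cannot go below p = 0.1.

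The share of *EGLN3* in this sum was 2.97%, 2.40% and 2.17% in the normoxic A549 libraries and 39.9%, 37.7% and 38.8% in the hypoxic ones. In T47D cells it was 2.58%, 2.30% and 2.81% and then 15.0%, 13.2% and 13.0%, and in HCT116 cells 3.15%, 4.31% and 4.60% and then 7.59%, 11.8% and 10.3%. The share was higher in every hypoxic library of these 3 lines. In PC3 cells it was 0.641%, 0.789% and 1.58% in normoxia and 2.08%, 1.04% and 1.16% in hypoxia, with overlap, and the difference of means was 0.42 percentage points (-0.08 without replicate 1). Over the 4 lines the mean difference was 13.4 percentage points (exact two-sided permutation test within lines, p = 6.25e-05). The length changed the level of the share but not its direction in any line. With the MANE Select length, *EGLN3* went from 3.46% to 50.3% (A549), 5.79% to 16.8% (HCT116), 1.56% to 2.45% (PC3) and 2.87% to 19.9% (T47D).

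Which EGLN gene was most abundant in normoxia depended on the length. With the union of exons *EGLN1* led in A549 (60.4% of the sum), HCT116 (64.9%) and PC3 cells (73.2%), and *EGLN2* led in T47D cells (61.0%). With the MANE Select length *EGLN2* led in A549 (58.7%), HCT116 (51.6%) and T47D cells (78.5%), and *EGLN1* in PC3 cells (52.1%). In hypoxia *EGLN1* led in HCT116 (78.7% and 60.9% with the union and the MANE Select length), PC3 (81.3% and 63.6%) and T47D cells (63.0% and 41.6%), although *EGLN2* led in hypoxic T47D replicate 3 with the MANE Select length (45.5% against 36.6%). In A549 cells *EGLN1* had 46.2% and *EGLN3* 38.8% with the union of exons, and *EGLN3* had 50.3% and *EGLN1* 27.4% with the MANE Select length. The share of *EGLN2* was lower in hypoxia in each line with both lengths.

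**Figure D4:**
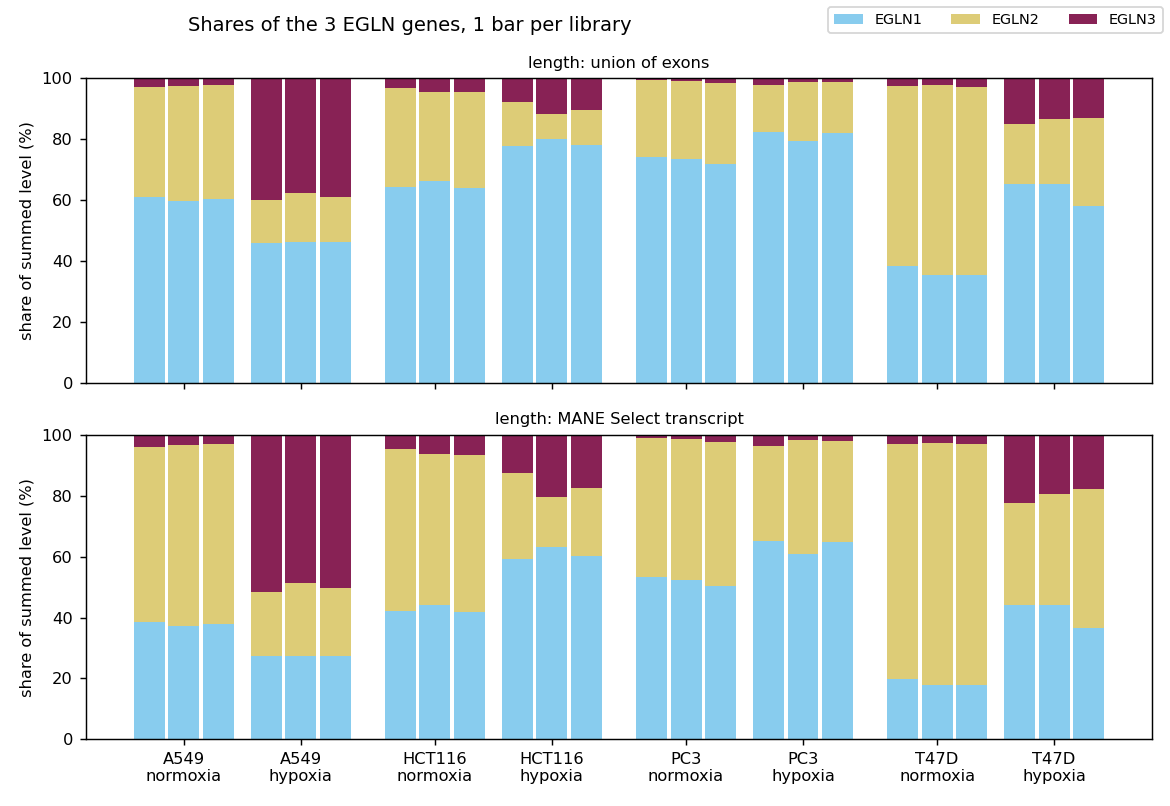
Share of *EGLN1*, *EGLN2* and *EGLN3* in their summed level per kilobase, with 1 bar per library (normoxic and hypoxic replicates 1 to 3 of each line from left to right) and 1 panel per length. The *EGLN3* part grows most in A549 cells, from 2.51% to 38.8% on average in the upper panel and from 3.46% to 50.3% in the lower panel.

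A list of 43 other genes of the oxygen-sensing pathway was described in the same fits, and 42 of them were tested in each line. The exception, *HIF3A*, had a mean of at most 0.179 CPM in any group. Of the 42, A549 cells had 10 upregulated and 9 downregulated (17.6% and 17.8% of all genes tested), and HCT116 cells had 16 and 13 (23.3% and 27%). PC3 cells had 10 and 4 (16.6% and 15.7%), and T47D cells had 4 and 3 (6.55% and 6.69%). The median log2 fold change of the list was 0.05, 0.13, 0.03 and 0.08 in A549, HCT116, PC3 and T47D cells, against -0.01, -0.03, -0.01 and -0.01 over all genes tested. The 4 decreases of PC3 cells were all lost with the correction for GC content and length and in each fit that left out 1 hypoxic library, which called 0 of the list downregulated.

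Among the substrates of the hydroxylases, *HIF1A* and *EPAS1* (HIF-2α) were called in opposite directions in A549 cells. *HIF1A* was downregulated in A549 cells, from 373 ± 38.2 to 146 ± 11.2 CPM (log2 fold change -1.36 ± 0.12, adjusted p = 9.69e-06 by edgeR), and in T47D cells (-0.72 ± 0.20, 0.0322; with the correction -0.33, 0.190). The T47D call held in 1 of 6 fits that left out 1 library. *EPAS1* was upregulated in HCT116 cells, from a mean of 13.4 to 60.3 CPM (2.049 ± 0.25, adjusted p = 1.08e-04 by edgeR), in A549 cells (0.54 ± 0.13, 0.00765) and in PC3 cells (0.52 ± 0.15, 0.0255). The PC3 call of *EPAS1* held in 3 of 6 fits that left out 1 library, and its HCT116 and A549 calls in all 6. Of the dimerization partners, *ARNT2* had the largest value in T47D cells (1.08 ± 0.45), but from 0.512 to 1.16 CPM and without a call (adjusted p = 0.125 by edgeR). It was upregulated in A549 cells, from 36.7 to 56.7 CPM (0.62 ± 0.12, adjusted p = 0.00200 by edgeR; with the correction 0.38, 0.0106). In HCT116 cells *ARNT2* (0.82 ± 0.26, adjusted p = 0.0187 by edgeR; with the correction 0.25, 0.421) and *ARNT* (0.66 ± 0.19, 0.0122; with the correction 0.57, 0.0191) were upregulated. The main fits called *ARNT* in no other line.

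The 4 partners of VHL in its ubiquitin ligase were upregulated in no line. Elongin C (*TCEB1*), elongin B (*TCEB2*), cullin 2 (*CUL2*) and the RING subunit *RBX1* were all downregulated in HCT116 cells, 2 of the 4 were in A549 cells and in PC3 cells, and 0 were in T47D cells. Of all genes tested, 27% were downregulated in HCT116 cells, 17.8% in A549, 15.7% in PC3 and 6.69% in T47D cells. With the correction, 3 of the 4 remained called in HCT116 cells (*CUL2* did not, -0.34, adjusted p = 0.125 by edgeR) and 0 in the other lines. The median log2 fold change of the 4, uncorrected, was -1.16 in HCT116 cells and between -0.34 and -0.47 in the other lines. *RBX1* fell from 182 ± 82.3 to 58.3 ± 3.15 CPM in HCT116 cells (-1.78 ± 0.29, adjusted p = 3.30e-04 by edgeR), and *TCEB1* from 103 to 73.5 CPM in A549 cells (-0.49 ± 0.12, 0.00874; with the correction -0.27, 0.0572). In PC3 and T47D cells *RBX1* had the largest values of the list, -0.61 ± 0.22 and -0.84 ± 0.29, neither of them called (adjusted p = 0.0543 and 0.0730 by edgeR). *VBP1*, a prefoldin subunit that binds VHL, was downregulated in all 4 lines, by -0.54 ± 0.12, -2.01 ± 0.28, -0.48 ± 0.16 and -0.90 ± 0.26 in A549, HCT116, PC3 and T47D cells (adjusted p = 0.00472, 1.63e-04, 0.0478 and 0.0393 by edgeR). Of the 11734 genes tested in every line, 3.36% were downregulated in all 4. With the correction for GC content and length *VBP1* was called in HCT116 cells (-0.65, adjusted p = 0.0318 by edgeR) but not in A549 (-0.022, 0.869), PC3 (0.10, 0.367) or T47D cells (-0.34, 0.241). Of the 6 fits that left out 1 library, 1 called it in PC3 cells and 2 in T47D cells. *WSB1*, a ubiquitin ligase subunit that targets VHL, was upregulated in A549 cells (0.74 ± 0.12, adjusted p = 9.56e-04 by edgeR) and T47D cells (0.81 ± 0.21, 0.0268), the latter in 1 of 6 fits without 1 library.

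Of 10 regulators of the prolyl hydroxylases, 3, 5, 2 and 2 were upregulated in A549, HCT116, PC3 and T47D cells, and 2 were downregulated, both in HCT116 cells. Of all genes tested, 17.6%, 23.3%, 16.6% and 6.55% were upregulated in these lines, and 27% were downregulated in HCT116 cells. Whether a list differed from these shares was not tested. *FKBP8*, a membrane-anchored protein that binds PHD2, was upregulated in all 4 lines, by 0.59 ± 0.11, 1.47 ± 0.21, 0.45 ± 0.09 and 0.91 ± 0.24 on the log2 scale (adjusted p = 0.00168, 1.95e-04, 0.00780 and 0.0294 by edgeR). The T47D call was lost without normoxic replicate 1 (0.78, adjusted p = 0.190 by edgeR) or 2 (0.897, 0.112), and the PC3 call in one fit of all 24 libraries (0.497, 0.0891). *SIAH2*, a ubiquitin ligase for PHD1 and PHD3, was upregulated in 3 lines, with 1.25 ± 0.22 in HCT116 cells (adjusted p = 5.02e-04 by edgeR); it was singled out after its values were seen. *WTIP*, a LIM protein that bridges prolyl hydroxylases and VHL, led the list in A549 cells (0.64 ± 0.13, adjusted p = 0.00294 by edgeR; with the correction 0.17, 0.318) and in PC3 cells (0.52 ± 0.18, 0.0506, not called). *ING4*, a chromatin-binding protein that associates with PHD2, was downregulated in HCT116 cells from 18.5 to 5.22 CPM on average (-1.95 ± 0.31, adjusted p = 3.06e-04 by edgeR).

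The coactivators whose contact with HIF-α is gated by FIH, *EP300* and *CREBBP*, were upregulated in A549, HCT116 and PC3 cells. With the correction both remained called in PC3 cells and neither did in HCT116 cells, and in A549 cells *EP300* did (0.42, adjusted p = 0.0407 by edgeR) and *CREBBP* did not (0.14, 0.443). Of the 6 fits that left out 1 A549 library, 4 called *EP300* and 2 called *CREBBP*. *CREBBP* had the largest value of its list in PC3 cells (0.89 ± 0.12, adjusted p = 0.00172 by edgeR). *CITED2*, which competes with HIF-α for these coactivators, was upregulated in all 4 lines, by 2.43 ± 0.16, 1.60 ± 0.22, 0.40 ± 0.09 and 2.596 ± 0.26 in A549, HCT116, PC3 and T47D cells (adjusted p = 1.41e-06, 1.63e-04, 0.0110 and 7.32e-05 by edgeR). These calls held under all 15 alternatives, except in PC3 cells in one fit of all 24 libraries (0.456, adjusted p = 0.195 by edgeR). Among 13 enzymes that make or use 2-oxoglutarate, succinate or fumarate, which are cosubstrate, product and inhibitors of the hydroxylases, 1 rose and 5 fell (A549), 4 rose and 5 fell (HCT116), 3 rose and 1 fell (PC3), and 0 rose and 1 fell (T47D). Genes called in either direction made up 35.5%, 50.3%, 32.3% and 13.2% of all genes tested, in the same order. *IDH2*, the mitochondrial NADP-dependent isocitrate dehydrogenase, was upregulated in A549 cells (2.19 ± 0.12, adjusted p = 1.85e-07 by edgeR), HCT116 cells (1.64 ± 0.27, 4.11e-04) and PC3 cells (0.35 ± 0.11, 0.0381; with the correction 0.27, 0.0739). The PC3 call of *IDH2* held in 1 of 6 fits that left out 1 library. *OGDH*, a subunit of the 2-oxoglutarate dehydrogenase complex, led in PC3 cells (0.59 ± 0.14, adjusted p = 0.0111 by edgeR), and *IDH3A* led in T47D cells, where it fell (-0.97 ± 0.21, 0.0127). *IDH3A* was also downregulated in A549 cells (-0.52 ± 0.11, adjusted p = 0.00421 by edgeR) and HCT116 cells (-0.53 ± 0.19, 0.0366; with the correction -0.34, 0.126). *P4HTM*, a transmembrane prolyl hydroxylase related to the EGLN enzymes, was called in no line (-0.28 to 0.05).

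**Figure D5:**
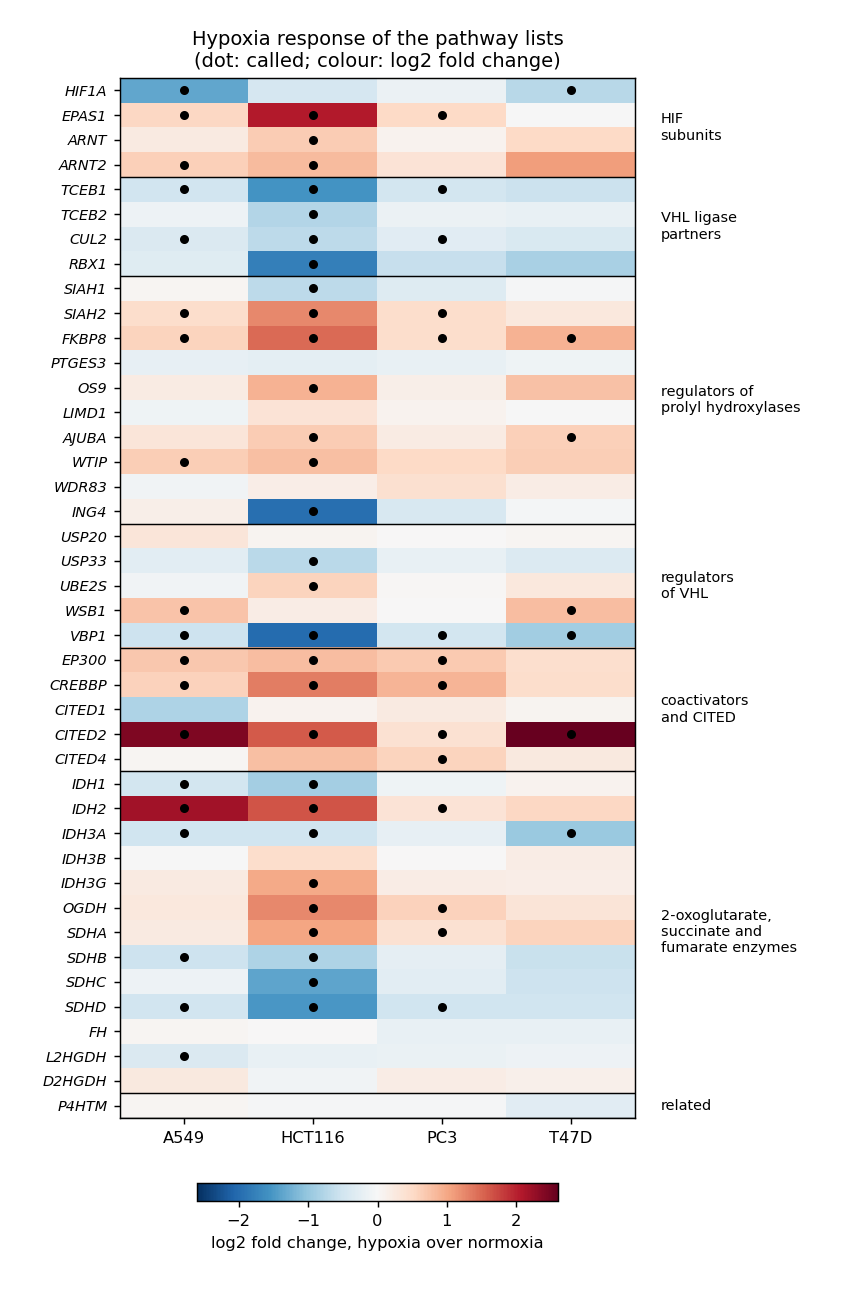
Log2 fold change of the 42 tested pathway genes (rows, grouped by list) in the 4 lines (columns), red for higher and blue for lower in hypoxia, with a dot for called changes. The dots of the 4 VHL ligase partners all lie on blue cells, and *FKBP8* and *CITED2* (up) and *VBP1* (down) carry dots in all 4 lines.

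The genes whose log2 CPM was most like that of each member over the 24 libraries were taken from 13255 genes with a mean of at least 1 CPM. These values describe libraries that share lines, depth and oxygen states, and Pearson's r is given without a test. For *EGLN1* they were *P4HA2* (r = 0.96), *PFKP* (0.96) and *PKM* (0.95), and for *EGLN3* they were *SLC29A4* (0.93), *SCARB1* (0.92) and *ANGPTL4* (0.91). For *EGLN2* they were *GALNS* (0.96), *TRAF2* (0.96) and *KCNF1* (0.95), for *HIF1AN* *C11orf95* (0.96), *FAM83H* (0.94) and *SIPA1L1* (0.94), and for *VHL* *LOC100133331* (0.90), *TSSK6* (0.87) and *C3orf62* (0.86). With each library set against the normoxic mean of its own line, the nearest genes were *PFKP* (0.98), *PIM2* (0.98) and *RSBN1* (0.98) for *EGLN1*, and *AK4* (0.97), *ALDOC* (0.97) and *TMEM45A* (0.97) for *EGLN3*. In that measure they were *PRCC* (0.95), *METTL13* (0.93) and *SGTA* (0.93) for *EGLN2*, *TEX261* (0.93), *TRAM2* (0.90) and *LRRC20* (0.89) for *HIF1AN*, and *TSSK6* (0.88), *DENND2C* (0.88) and *LOC100133331* (0.86) for *VHL*.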

How the data were processed

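RNA-seq counts of 24 libraries (4 cell lines, 2 oxygen states, 3 replicates) were used. Line, state and replicate number came from the sample labels. The authors trimmed reads with Trim Galore 0.3.3, aligned them to GRCh37 with HISAT2 2.05, removed fragments without a unique position with Picard 2.0.1 and counted fragments per UCSC gene with HTSeq 0.5.4p3 (mode intersection-strict). The deposited files hold raw counts, whole numbers without normalization. Removing fragments without a unique position lowers genes with near-identical copies. Depth was 22698584 to 62850747 counts per library.

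Computed here were fits with edgeR 4.0.16 in R 4.3.3 (filterByExpr, TMM, quasi-likelihood test, Benjamini-Hochberg adjustment over all genes tested), 1 fit per line and 1 fit of all 24 libraries for differences between lines. The study's thresholds were kept (adjusted p below 0.05, fold above 1.2), and its tool, DESeq2 (1.42.0 here), was an alternative. Log2 CPM used a prior count of 2. Shares and sums of the EGLN genes were tested by exact permutation within lines (Python 3.11.15). Other alternatives were RLE size factors, total counts, other filters, 1 fit for all lines, the replicate block, each library or replicate number left out, other lengths and, chosen after seeing the data, the MANE Select length and correcting for GC content and length (splines with 5 degrees of freedom; 93.4% of symbols matched to GENCODE 44). The fits were also run on simulated counts with known changes and the same setting of the spread for every gene. That run checks the code and does not give the error rates in these libraries.

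In the labels both oxygen states carry the same replicate numbers. Deviations from group means of same-numbered libraries correlated with r over 0.1 in all 3 pairs in PC3 cells (0.10 to 0.13) and T47D cells (0.20 to 0.30), and the pairing was taken as real in these lines only. There the block changed no call of the 5 genes. It did take the adjusted p of some pathway list genes below 0.05, such as *RBX1* in PC3 cells (0.0274 by edgeR). In HCT116 cells r was 0.089 to 0.33 and in A549 cells -0.011 to 0.25, so this limit does not settle whether those libraries were paired. With the block, *EGLN2* was called in HCT116 cells (adjusted p = 0.0204 by edgeR) and *VHL* in A549 cells (0.00326). The main fits and the main permutation test had no block in any line.

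The members and gene lists were chosen with earlier results of these data known. Genes named are the 5 members, list genes called the same way in all 4 lines or in opposite directions (none was), the gene with the largest absolute log2 fold change of each list in each line, the 3 most similar genes of each member by each measure, and genes that overlap or copy a member. *EP300*, *SIAH2*, *TCEB2*, *CUL2*, *ARNT* and the tissue markers fall outside this rule and were named after their values were seen. The prostate marker list is not reported here.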

Additional observations from a re-analysis of the deposited data

Results flagged for a closer look

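The hypoxia response differed between cell lines for 2 genes by the interaction test of edgeR over all 24 libraries. For *EGLN1* the adjusted p was 3.38e-05, with log2 fold changes of 0.81, 1.09, 2.25 and 2.37 in A549, PC3, HCT116 and T47D cells and higher levels in 12 of 12 hypoxic libraries than in any normoxic library of the same line. For *EGLN3* the adjusted p was 3.96e-05, with log2 fold changes of 5.15, 3.98, 3.28 and 1.503 in A549, T47D, HCT116 and PC3 cells. Both stayed past the threshold under all 9 alternatives, with adjusted p values up to 0.0228 for *EGLN1* and 0.0128 for *EGLN3*. With 3 libraries per group, no group was tested for a library far from the others.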

How the results depend on the processing

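The calls of *EGLN1* in 4 lines and of *EGLN3* in A549, HCT116 and T47D cells held under all 15 alternatives each, with log2 fold changes from 0.70 to 0.88 (A549), 0.996 to 1.19 (PC3), 2.16 to 2.39 (HCT116) and 2.26 to 2.53 (T47D) for *EGLN1*, and from 5.04 to 5.29, 3.12 to 3.57 and 3.86 to 4.26 for *EGLN3*. Other calls were less stable. Scaling by total counts moved the median of all genes by -0.12 in A549 and -0.11 in T47D cells. Except where a setting itself has fewer genes or libraries, the cause of a change was not tested.

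*EGLN2* in PC3 cells was not called with total counts (0.31), in one fit of all 24 libraries (0.40), or with the correction for GC content and transcript length without (0.21) or with the replicate block (0.21). In HCT116 cells it was called without the filter on low counts (0.58), in one fit of all libraries (0.62) and with the replicate block (0.51), while the correction gave 0.14 (0.13 with the block), uncalled. In T47D cells the correction turned its sign (-0.017, and -0.028 with the block). *HIF1AN* in A549 cells was not called with total counts (0.25), in one fit (0.36) or with the correction (0.057, and 0.057 with the block), and the correction turned the sign in HCT116 cells (-0.40, and -0.40 with the block) and PC3 cells (-0.052, and -0.051). *VHL* in A549 cells was called downregulated without the filter (-0.68), in one fit (-0.68), with the replicate block (-0.78) and with block and correction (-0.78).

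With 1 library left out, the log2 fold change ranged from 0.37 to 0.68 (HCT116), 0.29 to 0.45 (PC3) and -0.020 to 0.38 (T47D) for *EGLN2*, from 1.01 to 1.83 for *EGLN3* in PC3 cells, from 0.29 to 0.46 (A549) and 0.19 to 0.38 (PC3) for *HIF1AN*, and from -0.98 to -0.36 (A549) and -0.0071 to 0.27 (T47D) for *VHL*.

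In A549 and HCT116 cells 2 of 3 same-numbered pairs correlated over 0.1, and 2 of 3 normoxic libraries correlated best with their own number. Whether the libraries of these 2 lines were paired is therefore not settled. With the replicate block the interaction was called for *EGLN2* (adjusted p = 0.0290 by edgeR) and *VHL* (0.0317), with pair differences of -0.74 for *EGLN2* (A549 minus HCT116) and -0.96 for *VHL* (A549 minus T47D).

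Uncalled differences near 0 changed sign. For *HIF1AN* in HCT116 minus PC3 this occurred with the replicate block (-0.015), RLE size factors (-0.046), no filter (-0.068), a filter at a mean count of 50 (-0.091) and DESeq2 (-0.046). With a replicate number left out, responses ranged from -0.23 to 0.14 for *EGLN1* in HCT116 minus T47D, and for *HIF1AN* from -0.019 to 0.24 (A549 minus HCT116), -0.12 to 0.26 (A549 minus PC3), -0.15 to 0.029 (A549 minus T47D), -0.099 to 0.026 (HCT116 minus PC3) and -0.42 to 0.075 (PC3 minus T47D). Among log2 differences in level, signs turned for *EGLN2* in hypoxia (A549 against T47D) with total counts (-0.017), for normoxic *EGLN3* (HCT116 against T47D) with total counts (-0.14) and no filter (-0.00083), and for normoxic *VHL* (PC3 against A549) with no filter (-0.0025). With a replicate number left out these ranged from -0.10 to 0.43 and -0.16 to 0.19 for *EGLN2* in PC3 against HCT116 cells (normoxia and hypoxia), -0.0015 to 0.11 for *EGLN3* and -0.066 to 0.11 for *VHL*.

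Of the pathway list, one fit of all libraries called 6 genes up and 4 down in A549 cells, 2 and 0 (PC3), and 9 and 5 (T47D). The correction called 4 down in A549 cells (4 with the block), 8 in HCT116 cells, 0 in PC3 cells (1 with the block) and 1 in T47D cells (1 with the block, and 7 up). Total counts gave 2 up and 6 down in T47D cells. With 1 library left out, counts ranged from 4 to 11 down in A549 cells, 7 to 12 down in HCT116 cells, 5 to 11 up and 0 to 8 down in PC3 cells, and 1 to 7 up and 0 to 9 down in T47D cells.

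At 3 counts per library the floor is at most 0.132 CPM, and the normoxic *EGLN3* level of PC3 cells rests on 23 to 76 counts.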

Other observations

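Over the 24 libraries, log2 CPM of *EGLN1* and *EGLN3* correlated with r = 0.75, and with each library set against the normoxic mean of its own line r was 0.75. These are descriptions over libraries that share lines and oxygen states.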
